A study of Mus musculus with 4 samples.

Results

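The genes described here encode proteins that methylate DNA, remove that methylation or build repressive chromatin. The 41 genes were chosen by symbol from general knowledge of repressors of two-cell and germline genes, with earlier results of these data known. Counts over the set are therefore descriptions. Tet1, Tet2, Tet3 and Tdg, which remove methylation, are counted here among the repressor genes. All 41 were found among the 37310 genes of the deposited table, and Atf7ip had 2 rows, so that 42 rows carried a name of the set. mRNA was sequenced from mouse embryonic stem cells (mESCs) of the JM8 line, which comes from the C57BL6/N strain. There were 4 libraries, 2 labelled wild-type and 2 labelled Bmal1-/-, and all cells grew without feeders on gelatin in serum-free N2B27 medium with LIF, 1 µM PD0325901 and 3 µM CHIR99021 (2i + LIF). PD0325901 inhibits Mek and CHIR99021 inhibits Gsk3. Bmal1, the partner of Clock in the circadian transcription factor, had been disrupted with CRISPR/Cas9, and the Bmal1-/- cells are 1 clone in which both alleles carry frameshifting indels. Each label therefore stands for a single line, and the effect of the genotype cannot be told apart from other differences between the lines. p-values measure the spread between 2 cultures of a line. Libraries of both labels carry the experiment numbers 1 and 2, called replicates here, and the labels do not say whether a number marks an experiment shared by both lines.

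DNA methylation in mammals is set by the de novo enzymes Dnmt3a and Dnmt3b, copied at replication by Dnmt1 and removed through oxidation by the Tet enzymes. Histone H3 lysine 9 (H3K9) methylation, placed by Setdb1, Suv39h and Ehmt enzymes and read by HP1 proteins, marks heterochromatin and silences repeats. DNA and H3K9 methylation are known to keep germline and two-cell genes silent in mESCs, whose genome is poorly methylated in 2i medium. The Polycomb complex PRC1.6, Lsd1 and the chromatin assembly factor Caf-1 take part as well.

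The table gives normalized reads, which are reads per gene divided by a factor of each library (trimmed mean of M values, TMM). Libraries held from 21504265 to 23329034 reads on genes. The targeted gene, listed as Arntl, had 678 and 733 normalized reads in wild-type and 556 and 590 in Bmal1-/- libraries. Since its mRNA was present in every library it does not check the genotype, and libraries are called here by their labels. The study assayed Bmal1 mRNA and protein of the clone by other methods, which are not analysed here. Naive pluripotency markers summed to 116840 to 127411 normalized reads in each of the 4 libraries, whereas the lists for other lineages were low and differed between the labels. The 7 fibroblast markers summed to 3566 and 3721 in wild-type and to 1230.1 and 1259 in Bmal1-/- libraries, with Col1a2, Col3a1 and Postn at 3 reads or fewer everywhere. Sums for 7 trophoblast markers were 1992 to 2009 against 987 to 1031, with Elf5 at 3 reads or fewer, and for 6 neural markers 3547 to 3820 against 2041 to 2176, with Fabp7 and Neurog2 at 3 reads or fewer. The 9 primitive endoderm markers summed to 762 to 788 in wild-type and to 1112 to 1174 in Bmal1-/- libraries, and the 5 primed pluripotency markers to 286 to 320 and to 191 to 193, with Pou3f1 at 3 reads or fewer. Sums follow the most abundant genes, and genes of a list did not all move with its sum. By the test given below, 4 of 10 naive pluripotency genes were higher and 5 lower. Counts were 1 and 1 of 4 tested for fibroblast, 4 and 1 of 6 for primitive endoderm and 0 and 3 of 4 for trophoblast. For neural they were 0 and 2 of 4, and for primed pluripotency 0 and 1 of 2. Of all genes tested 24% were higher and 28.6% lower. The part of cells of other lineages in the differences given here was not tested. In RNA from whole cultures, fewer cells that use a gene and less RNA of it per cell cannot be told apart.

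All 41 repressor genes were expressed, with between 150 and 40341 reads in a library, and all passed the filter for testing (a mean of at least 10 normalized reads). With limma on log2(value + 1) and Benjamini-Hochberg adjustment over the 14510 genes tested, 30 of the 41 genes had an adjusted p under 0.05, where 52.6% of all genes tested had one. Among the 8872 genes at least as abundant as the lowest member, Tet3, the share was 61.9%. In Bmal1-/- cells 18 of the repressor genes were higher and 12 were lower, beside 24% and 28.6% of all genes tested. Scaled to equal library totals, 20 were higher and 9 lower, beside 4200 and 3194 of all 14510 genes tested. Higher genes then made up 56.8% of all genes called, against 45.7% with TMM. In limma without its intensity trend 16 of the 41 genes passed, 13 higher and 3 lower. Of all 14510 genes 5060 passed in that fit, 2545 higher and 2515 lower. The call held under every alternative tried other than the correction for exon length and GC content for 15 genes, which were Atf7ip, Atrx, Cbx3, Dnmt3a, Dnmt3l, Max, Mbd1, Mbd3, Mga, Morc3, Rif1, Tet1, Tet2, Tet3 and Zmym2. Of these, Max, Mga and Tet1 lost the call with that correction. The changes were small. None of the 41 genes passed 2-fold, which 7.21% of all genes (5.75% higher and 1.45% lower) and 1.98% of those at least as abundant as Tet3 did, and 35 had an absolute log2 fold change under 0.4. The median log2 fold change was 0.01 over the repressor genes and -0.03 over all genes tested. The 2 groups of libraries did not overlap for 37 of the 41 genes, of which 19 were higher and 18 lower, whereas the same held for 76% of all genes tested. A share of 76% leaves little to read from such a count.

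**Figure D1:**
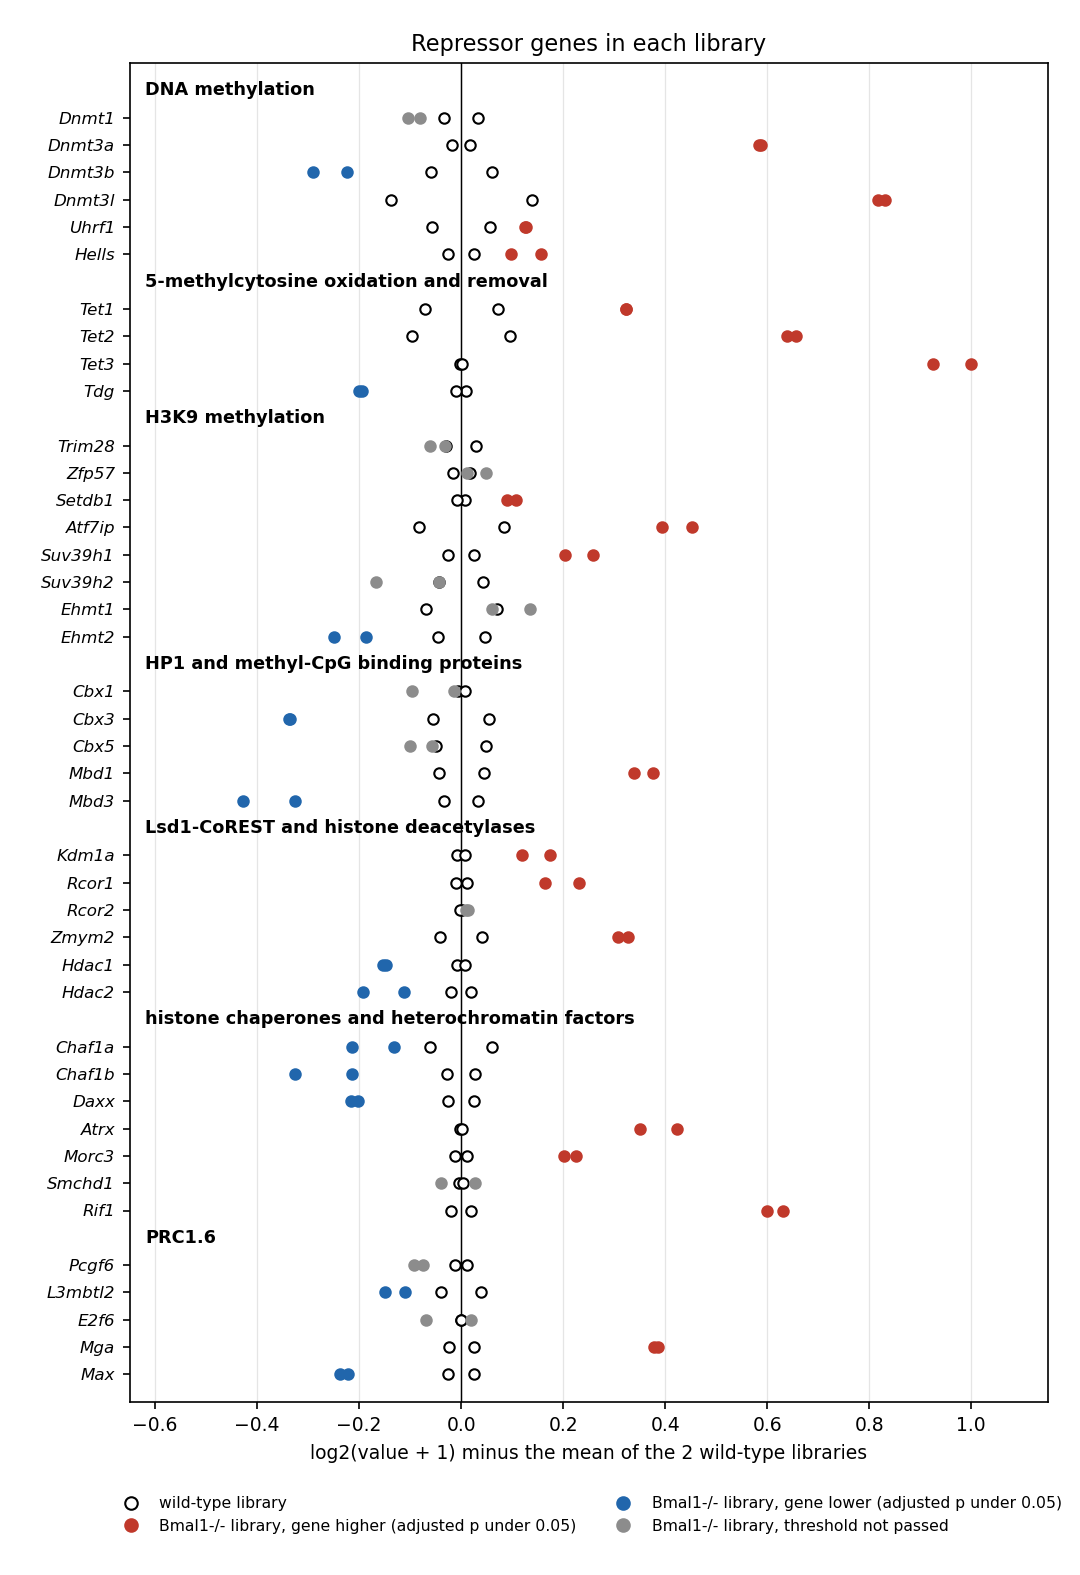
Each row is 1 of the 41 repressor genes, grouped by role, and each circle is 1 library, placed by its log2(value + 1) minus the mean of both wild-type libraries (open, wild-type; filled, Bmal1-/-; red, higher, blue, lower, grey, threshold not passed in limma). Wild-type libraries lay within 0.14 of their mean for every gene, and Bmal1-/- libraries ran from -0.43 for Mbd3 to 1.00 for Tet3.

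Levels of different genes were compared as normalized reads per kilobase of annotated exons. This length joins the exons of all annotated transcripts of a gene, which can understate the level of a gene with long or many transcripts. For Dnmt3a it was 16642 bases, while the longest coding transcript had 9685. In wild-type cells the highest level was that of Trim28, the scaffold through which KRAB zinc finger proteins recruit H3K9 methylation, at 9587 reads per kilobase, above 99.2% of the genes tested. Uhrf1, Zfp57, Hdac1 and Dnmt1 followed at 4112, 3809, 3346 and 2020.4 reads per kilobase. At the other end stood Mbd1, Dnmt3l, Suv39h1, Dnmt3a and Tet3, with 126, 119, 51.7, 47.1 and 14.4 reads per kilobase. Tet3 exceeded 16.6% of the genes tested on this scale. The maintenance genes Uhrf1, Dnmt1 and Hells exceeded 92.9% of the genes tested or more. Of the de novo genes, Dnmt3b (495 reads per kilobase) exceeded 78.9%, Dnmt3l 48.6% and Dnmt3a 32.4%.

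The DNA methylation genes changed most at their de novo end. Of the 6 genes of the group 4 were higher and 1 lower, beside 24% and 28.6% of all genes tested. With the correction for exon length and GC content 3 were higher and 1 lower, beside 27.6% and 21.3%. Dnmt3a, a de novo methyltransferase, had 793 and 774 normalized reads in wild-type and 1175 and 1179 in Bmal1-/- libraries. The log2 fold change was 0.59 ± 0.06 (here and elsewhere ± gives the standard error from limma, adjusted p = 4.4e-08). Dnmt3l, which has no catalytic activity and stimulates Dnmt3a and Dnmt3b, had 389 and 321 normalized reads in wild-type and 629 and 623 in Bmal1-/- libraries, a log2 fold change of 0.82 ± 0.09 (adjusted p = 1.1e-07). Both genes were higher in each Bmal1-/- library than in either wild-type library, as were 34.6% of all genes tested. Dnmt3b, the other de novo enzyme, moved the opposite way, with 2631 and 2421 normalized reads in wild-type and 2063 and 2159.9 in Bmal1-/- libraries. Its log2 fold change was -0.26 ± 0.05 (adjusted p = 2.2e-04), and in limma without the intensity trend the adjusted p was 0.061. The ratio of Dnmt3a to Dnmt3b, with both genes per kilobase, was 0.0925 and 0.0981 in wild-type and 0.175 and 0.167 in Bmal1-/- libraries. An exact 2-sided permutation test of a ratio within libraries cannot go below p = 0.333 with 2 libraries against 2, the value found here.

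Maintenance genes had smaller absolute log2 fold changes than the de novo genes, a difference that was not tested. Dnmt1, which copies methylation to the new strand, had 10879 and 10391 normalized reads in wild-type and 10054 and 9886 in Bmal1-/- libraries. The groups did not overlap, but its log2 fold change of -0.09 ± 0.04 had an adjusted p of 0.0504 in limma and did not pass the threshold. It passed without wild-type replicate 2, at -0.13 and an adjusted p of 0.0091, and, at the same value of -0.09, with the replicate number as a block (adjusted p = 0.038), with a filter at a mean of 100 (0.044) and with a pseudocount of 10 (0.049). Uhrf1, which brings Dnmt1 to hemimethylated sites, had 18209.5 and 16817 normalized reads in wild-type and 19126 and 19093 in Bmal1-/- libraries, a log2 fold change of 0.13 ± 0.04 (adjusted p = 0.012). The call was lost without wild-type replicate 2 (log2 fold change 0.07, adjusted p = 0.15), without Bmal1-/- replicate 1 (0.0697) and without replicate 2 of that label (0.067). With the length and GC correction the log2 fold change of Uhrf1 was 0.19 (adjusted p = 8.5e-06, limma), where Dnmt3a was at 0.26 and Dnmt3b at -0.23. A copy elsewhere in the genome matched 70.4% of the Uhrf1 transcript at 97.8% identity. Reads of Uhrf1 may therefore be shared, and its value is uncertain. Hells, a remodelling ATPase needed for the methylation of repeats, had a log2 fold change of 0.13 (adjusted p = 0.0098), which was 0.10 without Bmal1-/- replicate 2 (adjusted p = 0.14) and -0.0018 with the length and GC correction (adjusted p = 0.97).

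Promoter sequence set Dnmt3l apart from its partners. Windows of 300 bases around annotated gene starts (250 before and 50 after, RefSeq, GRCm38.p6) were given for 38 of the 41 genes, and Mbd1, Hdac1 and Rif1 had no entry. With the richest window of each gene, the median number of CpG sites was 29.5 over these 38 genes, 22 over the genes tested with an entry and 8 over all genes with an entry. Dnmt3l had at most 6 CpG sites in any of its 3 windows, the fewest of the 38 genes, while Dnmt3b had 30 and Dnmt3a 47. The 250 bases before a start of each of Dnmt3l and Dnmt3b are printed to show this difference, with an E-box of Dnmt3l (CACGTG) in capitals. Both lie on the + strand, Dnmt3l at chr10:78049592-78049841 and Dnmt3b at chr2:153649199-153649448 (GRCm38.p6).
Dnmt3l: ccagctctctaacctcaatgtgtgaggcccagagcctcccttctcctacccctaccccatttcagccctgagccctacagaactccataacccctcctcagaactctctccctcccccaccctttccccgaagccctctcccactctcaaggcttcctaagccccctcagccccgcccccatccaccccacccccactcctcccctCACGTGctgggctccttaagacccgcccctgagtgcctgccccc
Dnmt3b: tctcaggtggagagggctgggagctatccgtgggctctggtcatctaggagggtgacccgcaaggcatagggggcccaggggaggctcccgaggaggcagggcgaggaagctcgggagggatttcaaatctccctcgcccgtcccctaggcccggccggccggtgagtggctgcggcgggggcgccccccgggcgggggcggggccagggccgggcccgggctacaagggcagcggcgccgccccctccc
These stretches held 4 CpG sites for Dnmt3l and 21 for Dnmt3b.

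The 4 genes that oxidise and remove 5-methylcytosine all passed the test, 3 higher and 1 lower. Of all genes tested 52.6% passed, as did 61.9% of those at least as abundant as Tet3. With the length and GC correction 2 of the 4 were higher, since Tet1 lost its call. Tet3, the Tet dioxygenase with the lowest level per kilobase, had 159 and 159 normalized reads in wild-type and 319 and 303 in Bmal1-/- libraries. This was the largest log2 fold change of the 41 genes, 0.96 ± 0.10 (adjusted p = 1.4e-07, limma), a 1.96-fold difference. Tet2 had 4999.9 and 4378 normalized reads in wild-type and 7376 and 7287 in Bmal1-/- libraries, with a log2 fold change of 0.65 ± 0.05 (adjusted p = 1.1e-09). Tet1 had 8202 and 7429.6 normalized reads in wild-type and 9769.7 and 9766 in Bmal1-/- libraries, with a log2 fold change of 0.32 ± 0.04 (adjusted p = 3.5e-06). The correction brought this value to 0.0028 (adjusted p = 0.95). For all 3 Tet genes both Bmal1-/- libraries lay above both wild-type libraries, as they did for 34.6% of all genes tested. Tet1 exceeded Tet2 per kilobase in wild-type libraries, with ratios of 1.03 and 1.06, and fell below it in Bmal1-/- libraries, with ratios of 0.829 and 0.838 (exact permutation p = 0.333, the smallest possible). Tdg, the glycosylase that excises oxidised cytosines, was lower, with a log2 fold change of -0.20 (adjusted p = 0.0054). Copies elsewhere matched 85.2% of the Tdg transcript at 98.6% identity, its call was lost in DESeq2 (adjusted p = 0.11) and its value is uncertain.

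**Figure D2:**
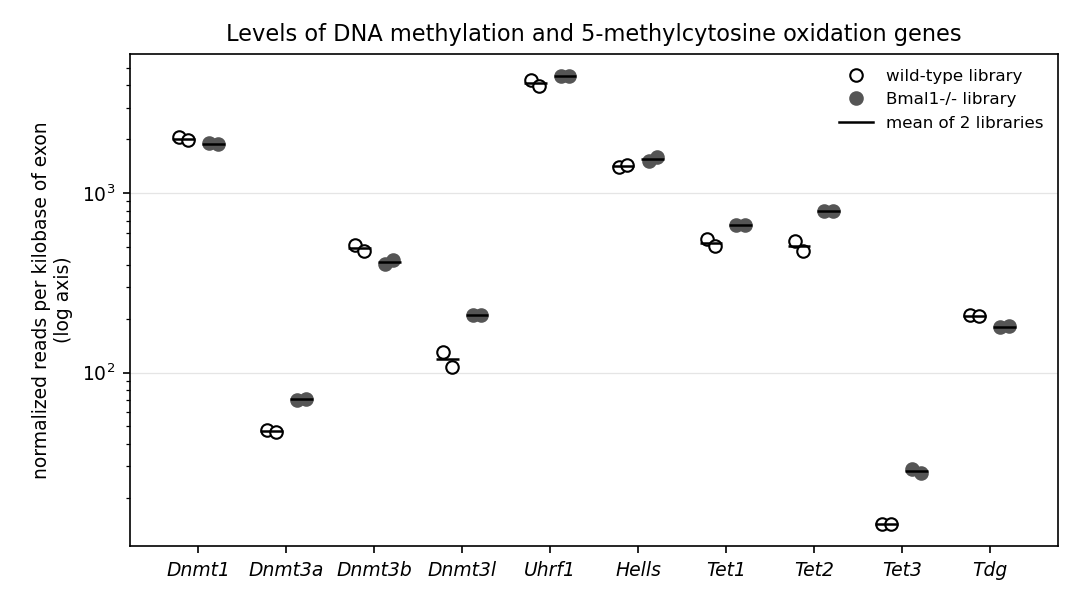
Normalized reads per kilobase of exon (log axis) of the 10 DNA methylation and oxidation genes, with 1 circle per library (open, wild-type; filled, Bmal1-/-) and a line at the mean of 2 libraries. Uhrf1, Dnmt1 and Hells lay at 1396 reads per kilobase or above in all libraries, while Dnmt3a rose from 47.1 to 70.7 and Tet3 from 14.4 to 28.1.

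Of the 8 H3K9 methylation genes 3 were higher and 1 was lower, so that 50% were called beside 52.6% of all genes tested, and the median log2 fold change was 0.06. Trim28 had 39553 and 37983 normalized reads in wild-type and 37896 and 37148 in Bmal1-/- libraries. The groups were next to each other without overlap, and its log2 fold change of -0.05 ± 0.04 (adjusted p = 0.31) did not pass and turned positive, to 0.09 (adjusted p = 0.041), with quantile normalization. Zfp57, the KRAB zinc finger protein that guards methylation at imprinting control regions, had a log2 fold change of 0.03 (adjusted p = 0.53) with overlapping groups. Setdb1, the H3K9 methyltransferase recruited by Trim28, had 3937 and 3892 normalized reads in wild-type and 4215 and 4168 in Bmal1-/- libraries. At a log2 fold change of 0.10 ± 0.04 its adjusted p was 0.0499 in limma, at the edge of the threshold. Leaving out wild-type replicate 1, wild-type replicate 2, Bmal1-/- replicate 1 or Bmal1-/- replicate 2 raised it to 0.0545, 0.11, 0.21 and 0.14, and with the length and GC correction it was 0.66. A copy elsewhere matched 12.4% of the Setdb1 transcript at 99.8% identity.

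Atf7ip, which protects nuclear Setdb1 from degradation, had a larger fold change than Setdb1, although the difference between them was not tested. It had 1531 and 1364 normalized reads in wild-type and 1978 and 1899.6 in Bmal1-/- libraries, a log2 fold change of 0.42 ± 0.06 (adjusted p = 2.6e-06, limma). A second row of the same symbol lies just downstream at chr6:136556350-136559373 (mm9) and had 720 and 736 normalized reads in wild-type and 718 and 762 in Bmal1-/- libraries. These groups overlapped, and the log2 fold change of the second row was 0.02 (adjusted p = 0.79). The row described as Atf7ip is the gene model at chr6:136467372-136555898, and the difference between the 2 rows was not tested. Of the H3K9 trimethylases of pericentric repeats, Suv39h1 was higher by 0.23 on the log2 scale (adjusted p = 0.037), and Suv39h2 had a log2 fold change of -0.11 (adjusted p = 0.21). The Suv39h1 call was lost without wild-type replicate 2 (adjusted p = 0.10), without Bmal1-/- replicate 1 (0.19), without replicate 2 of that label (0.099) and in DESeq2 (0.16). Exons of Gm14820 on the opposite strand cover 11.3% of its exon bases, and whether reads were counted by strand is not given in the sources used here. The dimethylases Ehmt1 (GLP) and Ehmt2 (G9a), which act as a pair, were called differently, since Ehmt1 did not pass (log2 fold change 0.10, adjusted p = 0.14) and Ehmt2 fell by 0.22 (adjusted p = 3.9e-04). Ehmt1 passed the threshold without wild-type replicate 1 (adjusted p = 0.012). Ehmt2 lost its call in limma without the trend (adjusted p = 0.0701).

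Of the 5 HP1 and Mbd genes 2 were lower and 1 was higher, so that 60% were called beside 52.6% of all genes tested. The HP1 proteins Cbx1 (HP1 beta), Cbx3 (HP1 gamma) and Cbx5 (HP1 alpha) bind methylated H3K9. Cbx3 fell by 0.34 ± 0.05 on the log2 scale (adjusted p = 1.5e-05, limma), from 1887 and 2037 to 1554 and 1552 normalized reads. Copies elsewhere matched 90.6% of the Cbx3 transcript at 98.4% identity, so that its value is uncertain. Neither Cbx1 (-0.06, adjusted p = 0.26) nor Cbx5 (-0.08, adjusted p = 0.11) passed, and the log2 fold change of Cbx1 was 0.0047 with equal library totals. Cbx5 passed without wild-type replicate 2 (log2 fold change -0.13, adjusted p = 0.0073). Mbd3, the subunit that defines one form of the NuRD deacetylase complex, had the lowest log2 fold change of the 41 genes, -0.38 ± 0.05 (adjusted p = 1.3e-06). Its values were 3556 and 3392 in wild-type and 2772 and 2582 in Bmal1-/- libraries, and the groups were far apart. Mbd1, which binds methylated CpG sites, was higher by 0.36 ± 0.08 (adjusted p = 7.5e-04), from 376 and 354 to 473 and 462 normalized reads.

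In the Lsd1-CoREST and histone deacetylase group, 3 of 6 genes were higher and 2 lower, beside 24% and 28.6% of all genes tested. Kdm1a (Lsd1), which demethylates H3 lysine 4 and is known to restrain two-cell genes, had 6612 and 6682 normalized reads in wild-type and 7218 and 7497 in Bmal1-/- libraries. Its log2 fold change was 0.15 ± 0.04 (adjusted p = 0.0038, limma), and without Bmal1-/- replicate 2 it was 0.12 (adjusted p = 0.077). The CoREST scaffold Rcor1 was higher by 0.20 (adjusted p = 0.0037; 0.072 without Bmal1-/- replicate 2), and its paralog Rcor2, the more abundant one per kilobase, had a log2 fold change of 0.01 (adjusted p = 0.84). With the length and GC correction the log2 fold changes of Rcor1 and Rcor2 were 0.175 and 0.168, and both passed (adjusted p = 0.003 and 6.7e-04, limma). Zmym2, a zinc finger protein found with Lsd1 and CoREST, was higher by 0.32 ± 0.05 (adjusted p = 1.4e-05). The deacetylases Hdac1 and Hdac2 were both lower, with log2 fold changes of -0.15 (adjusted p = 0.002 and 0.004), the call of Hdac1 being lost with the length and GC correction (-0.06, adjusted p = 0.091), and the ratio between them stayed within 2.26 and 2.38 in all libraries. Without Bmal1-/- replicate 1 the Hdac2 call was lost (log2 fold change -0.11, adjusted p = 0.098). Copies elsewhere matched 97.1% of the Hdac1 transcript at 98.8% identity and 5.9% of that of Zmym2 at 96.1%.

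The 3 histone chaperones of the set were lower, Atrx, Morc3 and Rif1 were higher, and Smchd1 did not pass the test. Of all genes tested 28.6% were lower and 24% higher. Both subunits of Caf-1 listed here, which loads histones behind the replication fork, were lower, with log2 fold changes of -0.17 for Chaf1a (adjusted p = 0.008) and -0.27 for Chaf1b (adjusted p = 8.6e-05). The Chaf1a call was lost without wild-type replicate 1 (adjusted p = 0.082) and without Bmal1-/- replicate 2 (0.13), in DESeq2 (0.098) and with the length and GC correction (0.64). Daxx, a chaperone of the histone variant H3.3, fell by 0.21 on the log2 scale (adjusted p = 8.2e-04), whereas its partner Atrx was higher, with 7250.1 and 7268 normalized reads in wild-type and 9730.3 and 9252 in Bmal1-/- libraries. The log2 fold change of Atrx was 0.39 ± 0.04 (adjusted p = 8.2e-08, limma). With the length and GC correction Daxx lost its call (-0.08, adjusted p = 0.12) and Atrx was at 0.09 (adjusted p = 0.048), and without the intensity trend of limma the adjusted p of Daxx was 0.0514. Morc3, an ATPase that takes part in silencing of repeats, was higher by 0.21 (adjusted p = 1.5e-04). Rif1, which sets replication timing and holds back two-cell genes, had 10293 and 10015 normalized reads in wild-type and 15378 and 15728.5 in Bmal1-/- libraries. This 1.53-fold difference (log2 fold change 0.62 ± 0.04) had the smallest adjusted p of the 41 genes, 3.3e-11. Smchd1, needed for silencing of the inactive X chromosome, had overlapping groups, and its log2 fold change of -0.01 (adjusted p = 0.93) was 0.05 with equal library totals. A copy elsewhere matched 4.9% of its transcript.

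Of the 5 PRC1.6 genes 1 was higher and 2 were lower, so that 60% were called beside 52.6% of all genes tested. With the length and GC correction 0 were higher and 1 was lower. Pcgf6, the subunit that defines this Polycomb complex, had 2626 and 2669.5 normalized reads in wild-type and 2514 and 2485 in Bmal1-/- libraries. Although the groups did not overlap, its log2 fold change of -0.08 ± 0.04 (adjusted p = 0.12, limma) did not pass. Mga, the scaffold that binds E-boxes together with Max, had 7673 and 7418 normalized reads in wild-type and 9812 and 9859 in Bmal1-/- libraries, a log2 fold change of 0.38 ± 0.04 (adjusted p = 6.5e-08). Max itself fell by 0.23 ± 0.05 on the log2 scale (adjusted p = 6.5e-04). The correction ended both calls, with Mga at 0.06 (adjusted p = 0.13) and Max at -0.05 (adjusted p = 0.36). L3mbtl2, a subunit that compacts chromatin, fell by 0.13 on the log2 scale (adjusted p = 0.02), a call lost without wild-type replicate 1 (0.13), without Bmal1-/- replicate 1 (0.052) or replicate 2 of that label (0.15). Exons of Chadl on the opposite strand cover 17.2% of the exon bases of L3mbtl2. E2f6, which leads the complex to E2F sites, had overlapping groups, and its log2 fold change of -0.02 (adjusted p = 0.78) was 0.04 with equal library totals. A copy elsewhere matched 44.9% of the E2f6 transcript.

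A pair of DNA motifs was searched in the promoter windows, since the disrupted factor and PRC1.6 subunits are known to bind them. Bmal1 with Clock, and Mga with Max, bind the E-box CACGTG, a palindrome that reads the same on both strands. It was found in a window of 8 of the 38 repressor genes with a promoter entry (21.1%). The share was 11.8% of the genes tested and 8.09% of all genes with an entry. Counted by window, it was 16.7% of the 54 windows of the repressor genes and 7.15% of all windows. The genes with the motif went both ways. Dnmt3l and Dnmt3a were higher, Tdg, Max, Ehmt2 and Chaf1a were lower, and Cbx5 and Rcor2 did not pass the test. The stretches with the motif are printed because they hold the letters that both factors are known to bind, from GRCm38.p6 and in the direction of the gene, with each E-box in capitals. They lie at chr10:78049774-78049827 (Dnmt3l, +), chr12:3891640-3891693 (Dnmt3a, +), chr10:82629786-82629837 (Tdg, +), chr12:76962235-76962262 (Max, -), chr17:34898424-34898473 (Ehmt2, +), chr17:56040293-56040346 (Chaf1a, +), chr15:103239959-103240012 (Cbx5, -) and chr19:7267340-7267393 (Rcor2, +).
Dnmt3l: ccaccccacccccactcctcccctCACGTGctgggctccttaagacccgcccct
Dnmt3a: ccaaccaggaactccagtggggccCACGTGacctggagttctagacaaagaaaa
Tdg: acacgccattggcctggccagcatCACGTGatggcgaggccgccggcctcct
Max: gtgagcccggtCACGTGttagggggccg
Ehmt2: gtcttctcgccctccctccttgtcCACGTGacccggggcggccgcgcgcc
Chaf1a: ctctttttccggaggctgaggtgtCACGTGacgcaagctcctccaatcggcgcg
Cbx5: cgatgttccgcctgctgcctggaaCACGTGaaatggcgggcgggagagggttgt
Rcor2: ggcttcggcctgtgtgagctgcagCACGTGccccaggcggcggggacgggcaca
The E-box began 44 bases before the gene start in Dnmt3l, 80 in Dnmt3a, 28 in Tdg and 3 in Max. Ehmt2 held further E-boxes in its windows. A match describes letters and not binding, and no binding was measured in these data.

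The E2F motif GCGGGAA, searched on both strands and not overlapping an E-box in these genes, was found in 6 of the 38 genes (15.8%). The share was 9.93% of the genes tested and 5.29% of all genes with an entry. Counted by window, it was 11.1% of the 54 windows of the repressor genes and 4.60% of all windows. Uhrf1 and Hells were higher, Chaf1a and Chaf1b lower, and Suv39h2 and Trim28 did not pass the test, so that the motif again came with both directions. One match of each is printed in the direction of the gene with the motif in capitals, which reads TTCCCGC where it lies on the opposite strand. They lie at chr17:56303265-56303319 (Uhrf1, +), chr19:38930905-38930959 (Hells, +), chr17:56040345-56040399 (Chaf1a, +), chr16:93883651-93883704 (Chaf1b, +), chr2:3475101-3475155 (Suv39h2, -) and chr7:13023950-13024004 (Trim28, +), all in GRCm38.p6.
Uhrf1: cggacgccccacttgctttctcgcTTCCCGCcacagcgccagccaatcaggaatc
Hells: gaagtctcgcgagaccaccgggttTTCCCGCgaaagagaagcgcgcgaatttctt
Chaf1a: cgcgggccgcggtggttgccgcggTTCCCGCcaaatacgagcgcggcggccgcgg
Chaf1b: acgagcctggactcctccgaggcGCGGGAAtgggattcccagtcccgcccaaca
Suv39h2: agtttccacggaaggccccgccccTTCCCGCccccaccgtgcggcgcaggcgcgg
Trim28: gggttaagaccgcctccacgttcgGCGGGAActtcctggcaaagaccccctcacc
Chaf1a was the only gene of the 38 with both motifs.

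Fold changes of the repressor genes moved with annotated exon length, as did those of all genes. This length joins the exons of all transcripts of a gene and can exceed that of any 1 transcript, as for Dnmt3a. When the genes tested were split into 5 equal parts by annotated exon length, the median log2 fold change rose from -0.15 in the shortest part to 0.13 in the longest (5936 to 116828 bases). Of the longest part 44.5% of genes were higher and 14.5% lower. It held 13 of the repressor genes, Dnmt3a, Hells, Tet1, Tet2, Tet3, Setdb1, Ehmt1, Cbx5, Atrx, Smchd1, Rif1, L3mbtl2 and Mga, of which 9 were higher and 1 lower, with a median of 0.32. The longest part thus held 9 of the 18 higher genes. No repressor gene was in the shortest part, and the 4 in the next (Mbd3, Chaf1a, E2f6 and Max) had a median of -0.20. Across the 41 genes Spearman's rho between log2 fold change and exon length was 0.48, across all genes tested it was 0.22, and across the 10486 genes with a mean of at least 100 normalized reads, as all 41 have, it was 0.39. Genes are not independent replicates and share their 4 libraries, so that these values are descriptions.

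**Figure D3:**
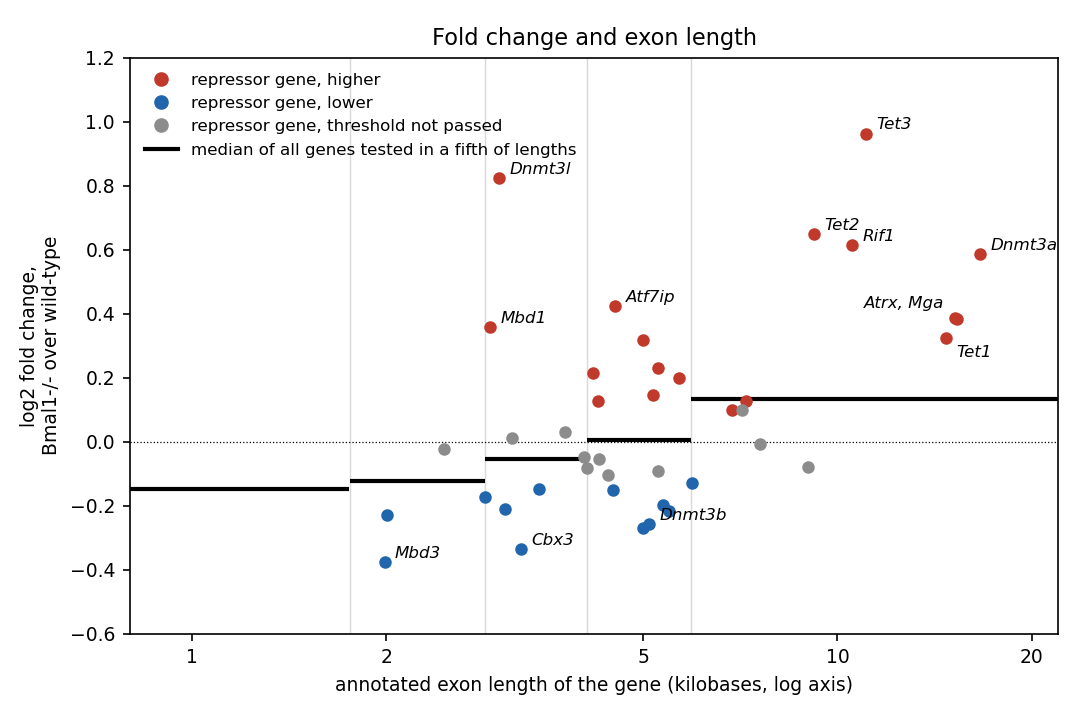
Log2 fold change (Bmal1-/- over wild-type) against annotated exon length (kilobases, log axis) for the 41 repressor genes (red, higher; blue, lower; grey, threshold not passed), with black lines at the medians of all genes tested in each of 5 equal parts by length, drawn within the axis. The medians climb from -0.15 to 0.13, and of the long genes Tet3, Tet2, Rif1 and Dnmt3a lie furthest above their line.

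The fold changes were therefore also computed after correction for exon length and GC content, an alternative chosen after the data were seen. The correction used the same joined exon length. With it, 26 repressor genes passed the threshold, 16 higher and 10 lower, beside 48.9%, 27.6% and 21.3% of all genes tested, so that 56.4% of all genes called were higher, against 45.7% without the correction. The call held in the same direction for 22 genes, 14 higher and 8 lower. Tet3 (0.80), Dnmt3l (0.95), Tet2 (0.47), Rif1 (0.40), Atf7ip (0.46) and Mbd1 (0.49) kept log2 fold changes of at least 0.4 or reached them. Dnmt3a dropped from 0.59 to 0.26 and remained higher (adjusted p = 1.6e-04, limma), and Atrx dropped from 0.39 to 0.09 (adjusted p = 0.048). In contrast, Tet1 went from 0.32 to 0.0028 and Mga from 0.38 to 0.06, and both lost the call (adjusted p = 0.95 and 0.13). The calls of Hells, Setdb1, Hdac1, Chaf1a, Daxx and Max were lost as well. Among lower genes, Dnmt3b (-0.23), Cbx3 (-0.26), Chaf1b (-0.24), Mbd3 (-0.19) and Ehmt2 (-0.14) remained lower. Cbx5, a long gene, became lower (-0.26, adjusted p = 1.2e-07), and Smchd1 (-0.13) became lower and Rcor2 (0.17) and Zfp57 (0.07) higher. The source of the length trend was not tested.

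**Figure D4:**
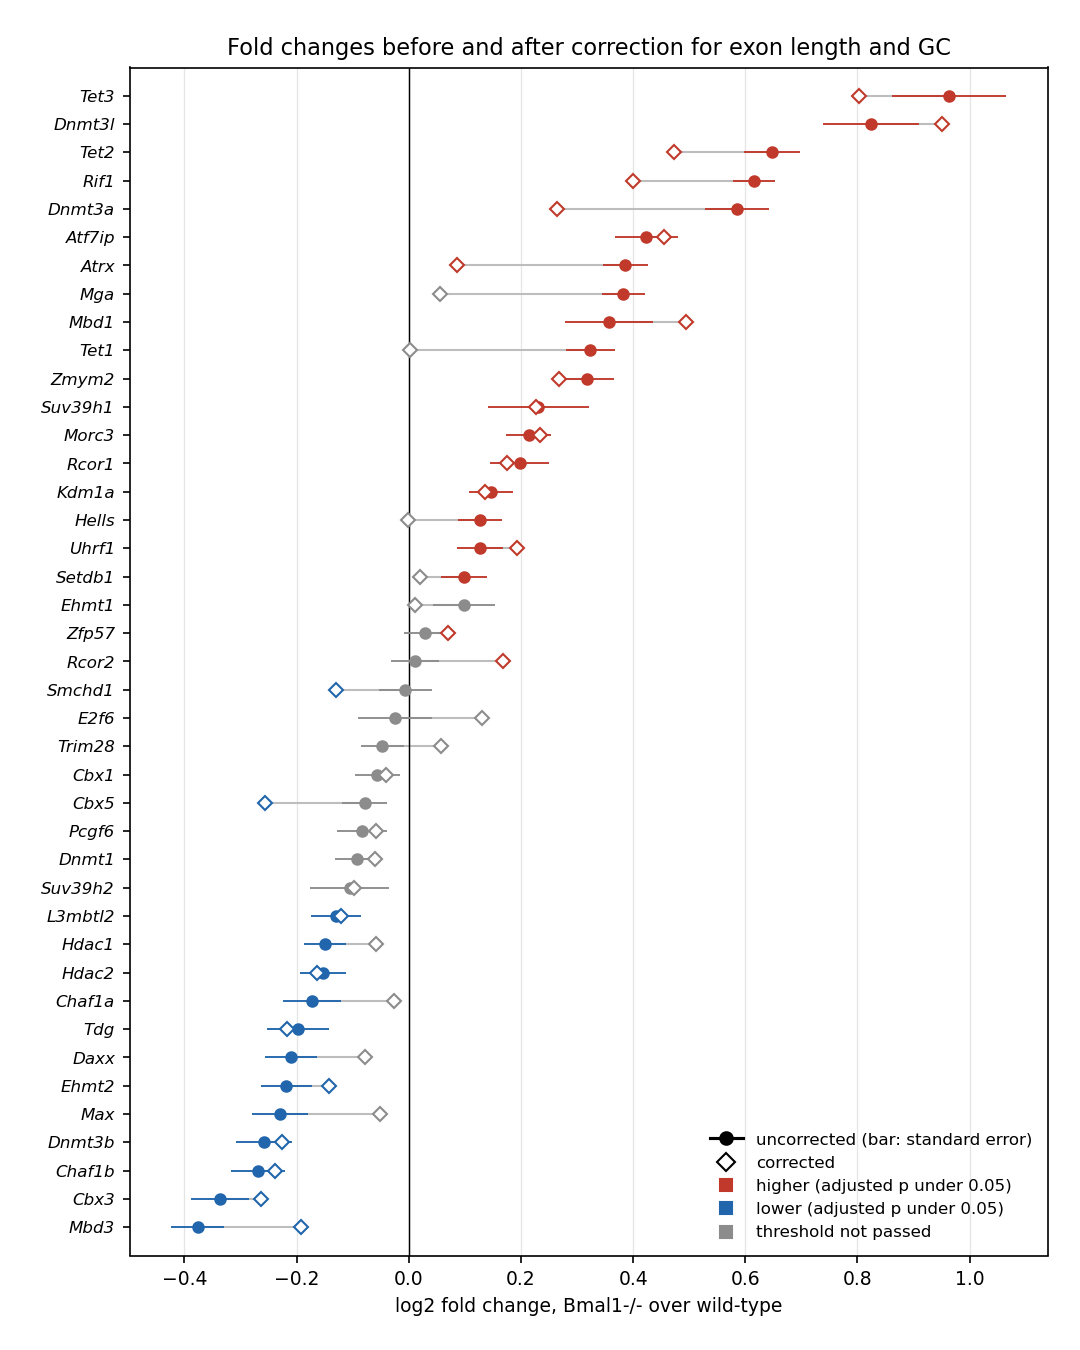
Log2 fold change of each of the 41 repressor genes without correction (circle, bar for the standard error) and with correction for exon length and GC content (diamond), ordered by the uncorrected value and coloured by call in limma (red, higher; blue, lower; grey, threshold not passed). Tet1 and Mga moved to 0.0028 and 0.06, whereas Dnmt3l and Tet3 stayed at 0.95 and 0.80.

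Further genes of the same pathways, listed by hand with earlier results of these libraries known, were examined beside the repressor genes, and their counts stand beside 24% higher and 28.6% lower of all genes tested. Of other DNA methylation and demethylation genes 5 of 20 tested were higher and 7 lower, with Dppa3, which shields DNA from maintenance methylation and excludes Uhrf1 from the nucleus, lower (log2 fold change -0.95, adjusted p = 5.4e-11, limma). Of other H3K9 methylation genes 5 of 13 were higher and 1 lower. Mecom, a PR-domain factor, had 24.2 and 23.4 normalized reads in wild-type and 160 and 179 in Bmal1-/- libraries, and Zfp809, a KRAB zinc finger protein that recruits Trim28 to retroviruses, was higher by 1.22 (adjusted p = 2.3e-12). H3K9 demethylases were higher in 5 of 9 cases and lower in 0 (5 and 1 with the length and GC correction). The largest log2 fold change was that of Kdm7a, 0.88 (0.67 with the correction). Other NuRD, CoREST, Sin3 and Ncor genes split into 5 higher and 6 lower of 21, and the NuRD ATPase Chd3 fell by 1.39 on the log2 scale (adjusted p = 5.7e-13). Of 10 other genes of histone chaperones and their partners 7 were lower and 2 higher (6 and 1 with the length and GC correction). The lower ones were the chaperones Hira, Asf1a, Asf1b and Nasp, the H3.3 histone genes H3f3a and H3f3b, and Lrif1, which binds HP1, and this naming was chosen after the values were seen. Other PRC1.6 subunits gave 3 higher and 2 lower of 7, with Tfdp1, the dimer partner of E2F factors, lower (log2 fold change -0.52, adjusted p = 1.4e-09).

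Known targets of these repressors were described as well. Of the 23 two-cell genes listed, 18 were matched to the table, and all 18 were higher and past 2-fold, with log2 fold changes of at least 2.70 and a median of 3.47. Zscan4c, for example, had 43.2 and 60.5 normalized reads in wild-type and 730 and 709 in Bmal1-/- libraries. Many two-cell genes belong to families of near-identical copies that share reads, so that single values are uncertain, and these genes were listed with results of the same libraries known. Germline genes silenced by DNA methylation or PRC1.6 were higher in 7 of 21 and lower in 1 (11 and 1 with the length and GC correction), beside 24% and 28.6% of all genes tested (27.6% and 21.3% with the correction), with Dazl at 615 and 594 normalized reads in wild-type and 2060.1 and 2336 in Bmal1-/- libraries. Imprinted genes went both ways, 4 higher and 5 lower of 13. Igf2r was higher by 0.85 and Meg3 had a log2 fold change of -0.92 (adjusted p = 6.0e-12 and 5.6e-10, limma).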

How the data were processed

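mRNA-seq libraries of 4 cultures, 2 labelled wild-type and 2 labelled Bmal1-/-, were made with a kit that marks strand. Per the labels, reads were demultiplexed with bcl2fastq 2.18.0.12, trimmed with cutadapt 1.9.1 and aligned to mm9 with STAR 2.5.2b. The counting tool and its strand setting are not given in the sources used here. The authors deposited a normalized signal per gene and library, the reads of a gene over a TMM factor (NOISeq), and each of its values was a whole multiple of 1 number, so that whole reads were recovered for 100% of values (tolerance 0.01 of a read). A floor of 3 reads corresponds to 2.82 to 3.19 normalized reads, and the libraries' 21504265 to 23329034 reads on genes set the precision. Replicates are separate libraries, since their reads differed beyond counting noise (chi-square over its degrees of freedom 2.83 for wild-type and 1.84 for Bmal1-/-).

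Genes with a mean of at least 10 normalized reads (14510) were tested in 1 fit by limma 3.58.1, R 4.3.3, using lmFit and then eBayes (intensity trend), on log2(value + 1), a scale that understates changes of low genes, with Benjamini-Hochberg adjustment and an adjusted p threshold of 0.05. DESeq2 is the tool the authors used, but on counts. Alternatives were no filter or a mean of at least 1 or 100, a pseudocount of 0.5 or 10, scaling by quantile normalization, by equal library totals or by median-ratio size factors, limma without its trend, a block for the replicate number, leaving out each library, and, on the recovered reads, DESeq2 1.42.0 and the quasi-likelihood test of edgeR 4.0.16. A correction of each library by loess (span 0.3) on exon length and GC content, with and without the block, was added after the data were seen. The tests were tried on simulated data.

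All 37310 identifiers were matched to symbols. Exon lengths and GC content came from GENCODE vM1 on NCBIM37 (mm9), and copies elsewhere from minimap2 2.31 (at least 200 matched bases and 95% identity). Promoter windows are from RefSeq (GRCm38.p6), whose coordinates differ from those of mm9. Members and lists were chosen with earlier results of these data known. Every member is named. Per-library values are given for called members with an absolute log2 fold change of at least 0.4 and for Dnmt1, Dnmt3a, Dnmt3b, Dnmt3l, Uhrf1, Tet1, Tet2, Tet3, Setdb1, Trim28, Kdm1a, Pcgf6 and Mga, and of other lists at most the 4 largest called changes are named. Values of Cbx3, Mbd1, Mbd3 and Atrx were added after they were seen. Raw reads were not analysed here.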

Additional observations from a re-analysis of the deposited data

How the results depend on the processing

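With 2 libraries a label, 1 clone and no batch given beyond an experiment number, the genotype and other differences between the lines cannot be told apart. Precision was lowest for the genes with fewest reads, with standard errors of 0.10 for Tet3 and 0.09 for Suv39h1 against 0.04 for Trim28.

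The count of 30 repressor genes passing the threshold was at most 31 under the alternatives. It was lowest in limma without the trend, at 16 (3 lower), where 5060 of all 14510 genes passed. edgeR on recovered reads called 7682 of all 14510 genes and 30 of the repressor genes, and DESeq2 5226 and 26. Leaving out each library gave median log2 fold changes of the repressor genes of 0.01 to 0.03. In these fits the lone library of a label is assumed to vary like the others. The median log2 fold change of 0.01 was 0.036 in edgeR, 0.043 in DESeq2, 0.072 with equal library totals and 0.091 with quantile normalization. Equal library totals put 1 gene past 2-fold, Tet3. The alternatives moved the median of all genes by at most 0.06.

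The sign turned for 5 genes, none of them called with TMM except Hells. Smchd1 was 0.0092 with median-ratio size factors, 0.054 with equal library totals, 0.040 with quantile normalization, 0.019 in edgeR and 0.026 in DESeq2, and ran from -0.039 to 0.027 with 1 library left out (positive without Bmal1-/- replicate 1). E2f6 was 0.036 with equal library totals, 0.012 with quantile normalization, 0.00037 in edgeR and 0.0074 in DESeq2, ran from -0.068 to 0.0196 with 1 library left out (positive without Bmal1-/- replicate 1) and was 0.13 with the length and GC correction, also with the replicate block. Trim28 was 0.0135 with equal library totals, 0.091 with quantile normalization and 0.057 with the correction, with or without the block. Cbx1 was 0.0047 with equal library totals, and Hells was -0.0018 with the correction, with or without the block. The causes were not tested.

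Replicate numbers were not shown to pair the samples, since the deviations of same-numbered libraries correlated at -0.013 over 10486 genes. With the replicate number as a block, 31 repressor genes passed, 18 higher and 13 lower. Of all 14510 genes tested 7949 passed, 3617 higher and 4332 lower. Dnmt1 was the addition (adjusted p = 0.038 in limma), the median of the repressor genes was 0.01 and 0 of them passed 2-fold. With both the correction and the block 25 repressor genes passed, beside 7150 of all genes tested.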

Other observations

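Several genes of the set act at the replication fork (Dnmt1, Uhrf1, Hells, Chaf1a, Chaf1b), so genes of DNA replication were described beside them. Of 23 replication genes listed, 14 were lower and 2 higher in Bmal1-/- libraries (limma, Benjamini-Hochberg adjusted p under 0.05), with a median log2 fold change of -0.18, where 28.6% of all genes tested were lower and 24% higher. Rrm2, a subunit of ribonucleotide reductase, had 12298 and 12649.6 normalized reads in wild-type and 9081 and 9486 in Bmal1-/- libraries. The licensing factor Cdt1 went from 5668 and 5657 to 4703 and 4330.3 normalized reads. Both groups of libraries were apart for Rrm2 and for Cdt1, as they were, in the lower direction, for 41.4% of all genes tested. Of the 5 repressor genes named, Chaf1a and Chaf1b were lower, Uhrf1 and Hells higher, and Dnmt1 did not pass the test. With the correction for exon length and GC content 12 of the 23 replication genes were lower and 4 higher, and the median was -0.09.

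Ratios within a library do not depend on its scaling, but these were not corrected for exon length and GC content. With that correction the log2 fold changes of Rcor1 and Rcor2 were 0.175 and 0.168. Those of Ehmt1 and Ehmt2 were 0.01 and -0.14, and those of Dnmt3a and Dnmt3b 0.26 and -0.23. Tet1 and Tet2 were at 0.0028 and 0.47, and Suv39h1 and Suv39h2 at 0.23 and -0.10. No share over other pairs of genes is given here. Of 8 pairs of paralogs, the ratio of the groups did not overlap for Dnmt3a to Dnmt3b, Tet1 to Tet2, Suv39h1 to Suv39h2, Ehmt1 to Ehmt2 and Rcor1 to Rcor2. Ehmt1 to Ehmt2, for example, was 0.305 and 0.295 in wild-type and 0.356 and 0.392 in Bmal1-/- libraries. It overlapped for Cbx1 to Cbx5, Hdac1 to Hdac2 and Chaf1a to Chaf1b. No exact permutation test over 2 against 2 libraries can go below p = 0.333, so that none of the 8 pairs can pass.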
